A study of Mus musculus with 8 samples.

Results

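Pancreas of BDC2.5/NOD mice was compared with pancreas of NOD mice, to ask what a transgenic T cell receptor changes in the gland of an otherwise diabetes-prone strain. The comparison rests on 4 of the 8 arrays of the series, chosen by their titles: 2 of BDC2.5/NOD and 2 of NOD. Both groups were 3 weeks old and have the NOD background, an inbred strain that develops autoimmune diabetes. BDC2.5/NOD mice carry in addition the BDC2.5 transgene, which encodes the rearranged receptor of an islet-reactive CD4 clone. These mice can still rearrange receptor genes of their own, so their other lymphocytes are not absent by design. NOD mice lack the transgene. The other 4 arrays, 2 of BDC2.5/NOD.scid and 2 of NOD.scid, carry the scid mutation of Prkdc that blocks rearrangement. Their mice were also 3 weeks old. These 4 arrays served to estimate the spread and for a closing comparison of the 2 backgrounds. Each label gives 2 RNA isolations of 6 animals each, combined, and does not say whether the arrays of a group come from separate pools. The p-values therefore measure the spread between arrays, which may be technical. The labels give neither sex nor litter. All 12422 probe sets that are not array controls were tested, of 12488 on the array. Values are deposited log2 values, given for replicates 1 and 2 of a group, with n = 2 arrays each. A single probe set stands for each symbol, the brightest by its 8-array mean, and this left 8251 genes, the same as in the whole series.

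Most of the pancreas is acinar tissue, which makes digestive enzymes in the endoplasmic reticulum and ships them through the Golgi to zymogen granules. When folding capacity in that compartment falls short, cells raise chaperones through the unfolded protein response, and its ATF4 arm raises amino acid supply. Reg lectins are small secreted proteins that acinar cells make in quantity in pancreatitis and around inflamed islets. Islets, ducts, stroma and blood make up the rest of the tissue, and in RNA of the whole organ fewer cells of a type and less RNA per cell cannot be told apart.

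Across probe sets, Pearson's r was 0.99613 within the BDC2.5/NOD pair and 0.99275 within the NOD pair, and arrays of different groups correlated at 0.97816 to 0.9823. Markers of acinar cells were above the median of all tested probe sets (4.27) for 7 of 7 measured genes, and those of islets for 6 of 7. The BDC2.5/NOD pair had a smaller spread within the pair (0.0938, against 0.131 in NOD, both SD on the log2 scale). Its BioB hybridization controls averaged 7.02 and 7.06, against 6.28 and 6.13 on the NOD arrays. A beta-actin control read 6.95 and 7.21 on the BDC2.5/NOD arrays, against 9.35 and 7.59 on the NOD arrays. Linear ratios of 3' to 5' probe sets, a sign of RNA integrity, were 3.16 and 3.17 for actin in BDC2.5/NOD, against 4.90 and 3.53 in NOD. For Gapdh they were 1.78 and 1.77 in BDC2.5/NOD, against 2.43 and 1.86 in NOD, so NOD replicate 1 stood highest in both. Xist, an RNA of the silenced X in female cells, read 3.71 and 3.69 in BDC2.5/NOD, against 7.26 and 4.60 in NOD (log2 difference -2.23, adjusted p = 0.0589). Eif2s3y, of the Y chromosome, read 3.28 and 3.19 in BDC2.5/NOD, against 3.17 and 3.50 in NOD, and the groups overlapped. The BioB, actin, Gapdh and Xist values run with the groups, and their part in the differences below cannot be told apart from that of the transgene by these arrays. Genes marking other cells were summed as linear values, and the log2 of the sum is given, so the brightest genes weigh most. For 7 fibroblast genes it was 9.25 and 9.26 in BDC2.5/NOD, against 10.1 and 10.1 in NOD, with 6 of 7 lower. For 5 red cell genes it was 10.5 and 10.6 in BDC2.5/NOD, against 11.2 and 11.1 in NOD, with only 2 of 5 called lower. For 4 adipocyte genes it was 6.66 and 6.72 in BDC2.5/NOD, against 7.32 and 7.49 in NOD, with only 2 of 4 called lower.

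Across the array, 990 of 12422 probe sets differed between BDC2.5/NOD and NOD (7.97%, limma, adjusted p under 0.05), with 486 higher (3.91%) and 504 lower (4.06%). By gene, 719 of 8251 were called (8.71%), with 343 higher (4.16%) and 376 lower (4.56%), and the median log2 difference over all genes was 0.036. Groups did not overlap for any of the 719, which a call with 2 arrays per group nearly requires, so this adds no support. Most differences were small: the median size of a called difference was 0.516 on the log2 scale, and 56 called genes differed by at least 2-fold, 22 higher and 34 lower. At 4-fold or more, 8 genes were higher and 0 lower. The number called depended on single arrays, being 279 probe sets without BDC2.5/NOD replicate 1, 323 without BDC2.5/NOD replicate 2, 479 without NOD replicate 1 and 663 without NOD replicate 2. With array medians centred, 38.9% of the calls were higher (408 higher, 640 lower), against 49.1% in the values as deposited. With the Xist level as a term, 606 probe sets were called (190 higher, 416 lower). Counts for gene lists below are read against the shares of 4.16% higher and 4.56% lower over all genes. The lists were chosen with earlier results of these data known, which can by itself raise their shares, and no set test was run.

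**Figure D1:**
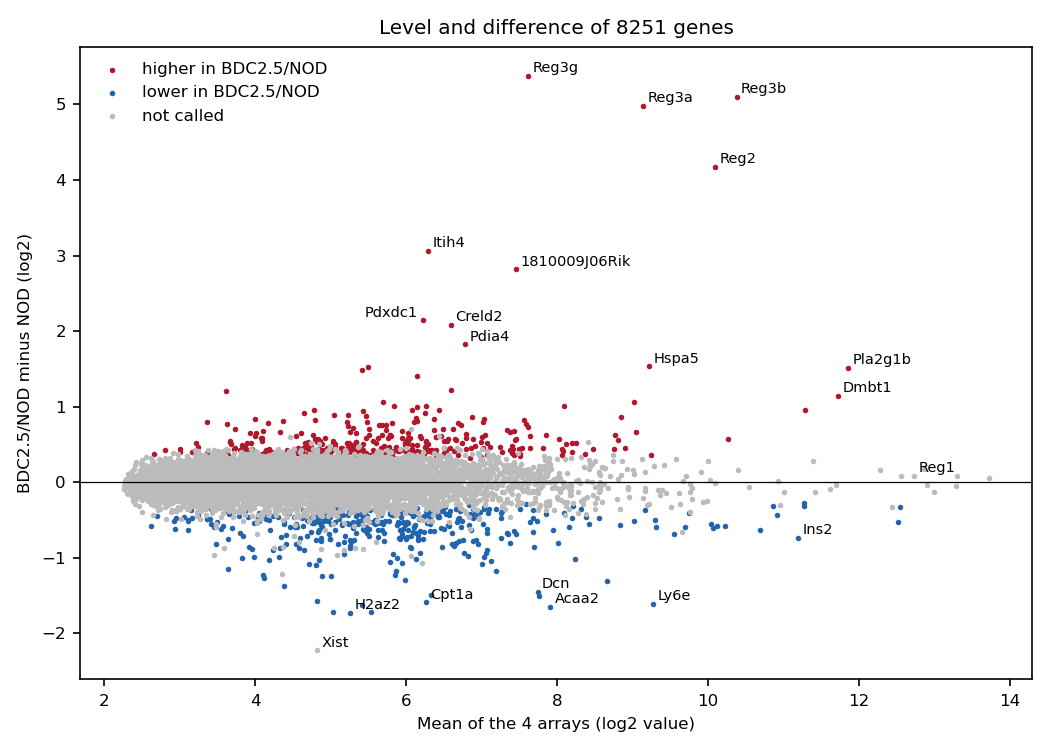
Each point is a gene, with its mean log2 value over the 4 arrays (horizontal) and its log2 difference BDC2.5/NOD minus NOD (vertical); red genes were called higher in BDC2.5/NOD, blue genes lower and grey genes were not called. The 4 Reg genes stand at 4.17 to 5.38, far above the rest, while Reg1 lies near 0; the called genes below the line reach -1.73 and Xist, not called, -2.23.

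Reg lectins were the leading genes. Reg3g, a secreted lectin that binds bacterial peptidoglycan, read 10.27 and 10.35 in BDC2.5/NOD, against 4.87 and 4.99 in NOD, a log2 difference of 5.38 (SE 0.119, 41.6-fold, adjusted p = 3.26e-11). Reg3b, known as pancreatitis-associated protein, read 12.92 and 12.94 in BDC2.5/NOD, against 7.79 and 7.87 in NOD (5.10, SE 0.0749, 34.3-fold). Reg3a read 11.56 and 11.70 in BDC2.5/NOD, against 6.72 and 6.58 in NOD (4.98, SE 0.0973, 31.6-fold). In each of these genes both BDC2.5/NOD arrays were far above both NOD arrays, and the spread within a pair was small beside the difference. Reg2, a further lectin of the family, read 12.08 and 12.28 in BDC2.5/NOD, against 8.05 and 7.96 in NOD (4.17, SE 0.101, 18.1-fold). Reg1, the fifth measured member, was at 12.74 and 12.80 in BDC2.5/NOD, against 12.65 and 12.73 in NOD, a difference of 0.08 that was not called (adjusted p = 0.65). The 4 of 5 genes called stayed called with each of the 4 arrays left out. Second probe sets gave 3.98 for Reg3g, 5.50 for Reg3b, 4.38 for Reg3a and 0.75 for Reg2, all called.

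Further secreted and surface proteins rose. Itih4, an acute-phase plasma protein of the inter-alpha-trypsin inhibitor family, read 7.87 and 7.77 in BDC2.5/NOD, against 4.74 and 4.77 in NOD (3.06, SE 0.0991, 8.36-fold, adjusted p = 1.3e-09). Dmbt1, a secreted scavenger-receptor protein of epithelia, read 12.24 and 12.35 in BDC2.5/NOD, against 11.09 and 11.21 in NOD (1.15, 2.21-fold). Itln1, an intelectin that binds microbial sugars, rose by 1.23, and the galectin gene Lgals9 by 1.41, with 0.62 on a second probe set, also called. F2, the prothrombin gene, read 4.13 and 4.31 in BDC2.5/NOD, against 3.17 and 2.85 in NOD, and its difference of 1.21 starts from values near the bottom of the scale. Lrg1, a leucine-rich glycoprotein of inflammation, rose by 0.92. Within the list of acute-phase and plasma proteins, 4 of 37 measured genes rose and 3 fell (median 0.0625), so most of the list did not follow Itih4. The members that fell were Vtn, the adhesion protein vitronectin, which read 6.95 and 7.05 in BDC2.5/NOD, against 8.61 and 8.41 in NOD (-1.51, SE 0.0984), and Apoe (-0.94) and Rbp4 (-0.41).

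**Figure D2:**
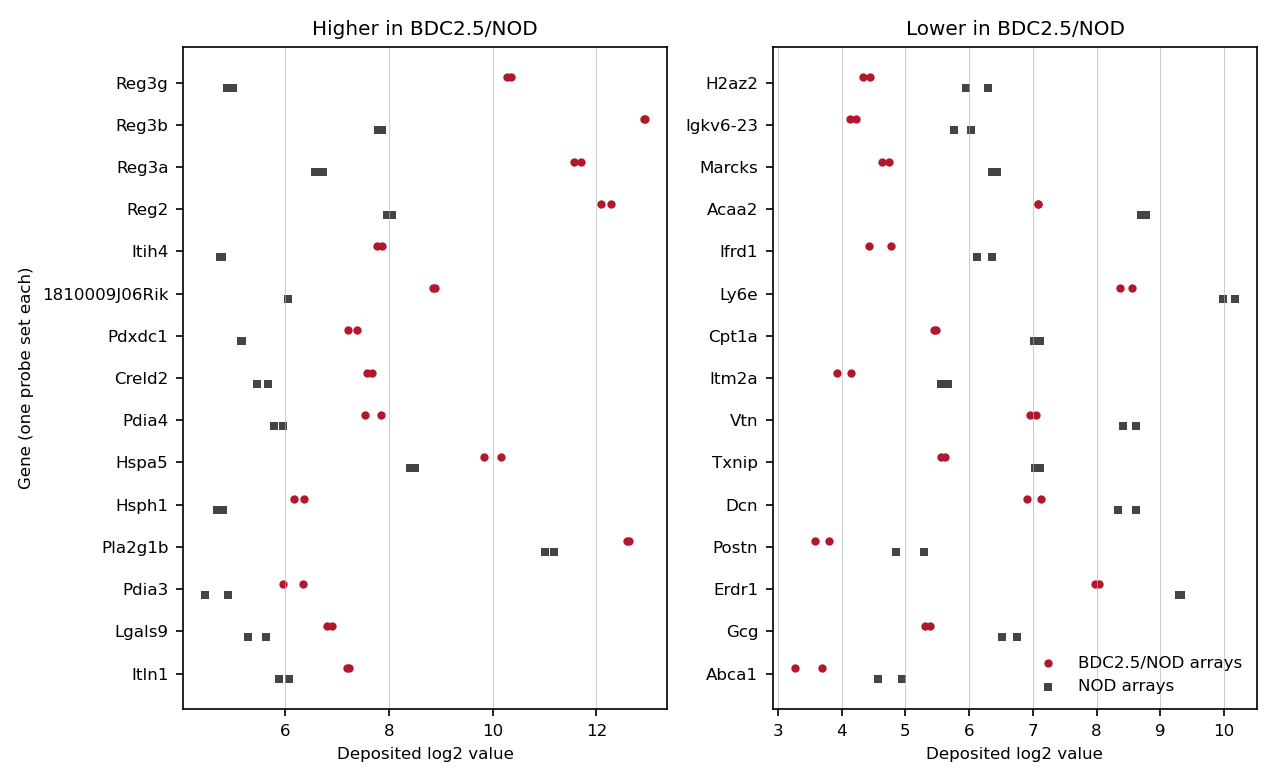
Deposited log2 values (horizontal) of the 15 genes with the largest differences in each direction, with BDC2.5/NOD arrays as red circles above the NOD arrays as grey squares in each row. Genes were chosen so that the arrays of the groups do not overlap in any row. Reg3g sits at 10.27 and 10.35 in BDC2.5/NOD, against 4.87 and 4.99 in NOD, and H2az2 at 4.34 and 4.45, against 5.95 and 6.29.

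Of 31 measured genes for chaperones and other folding proteins of the endoplasmic reticulum 13 rose and 0 fell, a share of 41.9% against 4.16% of all genes, with a median of 0.256. Creld2, a secreted protein induced by stress of this compartment, read 7.58 and 7.68 in BDC2.5/NOD, against 5.44 and 5.66 in NOD (2.08, SE 0.104, 4.22-fold, adjusted p = 1.42e-07). Hspa5, the chaperone BiP that binds unfolded chains and holds the stress sensors inactive, read 9.83 and 10.15 in BDC2.5/NOD, against 8.41 and 8.51 in NOD (1.53, SE 0.124, 2.89-fold). Hsp90b1, the chaperone GRP94, read 9.47 and 9.63 in BDC2.5/NOD, against 8.42 and 8.55 in NOD (1.06, 2.09-fold). The groups were apart in all 3, as in every called gene. Pdia4, a protein disulfide isomerase, read 7.85 and 7.53 in BDC2.5/NOD, against 5.78 and 5.95 in NOD (1.82, SE 0.128, 3.54-fold). Its relative Pdia3, which folds glycoproteins, read 5.96 and 6.35 in BDC2.5/NOD, against 4.45 and 4.89 in NOD (1.48, SE 0.232). Dnajb9 and Dnajc3, co-chaperones of BiP, each rose by 0.95. Second probe sets gave 1.65 for Dnajb9, called, and -0.01 for Dnajc3, not called. Smaller rises were those of Manf, a secreted trophic factor of the stress response (0.82), the sulfhydryl oxidase Qsox1 (0.80), Dnajb11 (0.62), Pdia6 (0.57), Calr, the lectin chaperone calreticulin, whose probe set was dim (0.42), and the prolyl isomerase Fkbp11 (0.38). Of the other probe sets, those of Pdia6 at 0.30 and 0.08 were not called. The list was not uniform: Canx, the membrane-bound partner of calreticulin, was at -0.12, and P4hb, the most common disulfide isomerase, at -0.07, neither called. The count was 8 without either BDC2.5/NOD array, 9 without NOD replicate 1, 10 without NOD replicate 2 and 7 with the Xist level as a term.

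Promoters of several of these genes hold the endoplasmic reticulum stress element (ERSE), bound by ATF6 and XBP1, and are shown because its letters stood in several members that rose. RefSeq promoters of GRCm38.p6, from 250 bases before to 50 after each start, were searched on both strands for 6 motifs, chosen with these results known. The ERSE was taken as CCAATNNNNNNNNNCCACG, which overlaps 2 of the others searched, CCAAT and CCACG. It stood in 39 of 32851 promoters (0.119%) and in 12 of the 6572 measured genes with a promoter (0.183%). Of those 12 genes, 6 were higher in BDC2.5/NOD and 0 lower: Creld2, Hspa5, Hsp90b1, Dnajc3, Pdia6 and Calr, all of the folding list. The other 6 were not called, and were Ero1b (0.39, adjusted p = 0.0679), Adcy3 (0.27), Zfp57 (0.01), Ptgdr2 (-0.01), Canx (-0.12) and Pan2 (-0.26). Within the list, 6 of 12 higher genes with a promoter held the letters, and 2 of 15 that were not called. A match is a description of letters and was not tested as a site. Below, the element is in capitals. The Hspa5 promoter is given whole (chr2:34771840-34772139, + strand) and the others as 59 bases around the element, on the strand of the gene, at chr10:86705618-86705676 and chr10:86705513-86705571 for Hsp90b1 (- strand), chr12:17266471-17266529 for Pdia6 (+ strand), chr15:88819500-88819558 for Creld2 (+ strand), chr8:84847055-84847113 for Calr (- strand) and chr14:118937807-118937865 for Dnajc3 (+ strand).
Hspa5: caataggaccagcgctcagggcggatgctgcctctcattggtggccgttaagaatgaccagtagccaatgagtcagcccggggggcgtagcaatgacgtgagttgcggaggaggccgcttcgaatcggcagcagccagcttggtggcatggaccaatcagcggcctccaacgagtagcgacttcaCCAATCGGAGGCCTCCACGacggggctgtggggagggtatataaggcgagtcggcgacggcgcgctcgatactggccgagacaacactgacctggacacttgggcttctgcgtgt
Hsp90b1, upstream copy: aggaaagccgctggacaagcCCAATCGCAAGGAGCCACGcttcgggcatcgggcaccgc
Hsp90b1, downstream copy: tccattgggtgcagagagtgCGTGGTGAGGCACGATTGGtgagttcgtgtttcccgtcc
Pdia6: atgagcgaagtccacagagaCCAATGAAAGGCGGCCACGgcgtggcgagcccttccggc
Creld2: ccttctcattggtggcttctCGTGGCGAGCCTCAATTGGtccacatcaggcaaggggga
Calr: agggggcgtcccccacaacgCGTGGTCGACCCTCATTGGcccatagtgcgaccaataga
Dnajc3: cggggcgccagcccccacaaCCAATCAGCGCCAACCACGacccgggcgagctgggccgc

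In these 6 genes the element lay upstream of the start, between base -212 (the upstream copy of Hsp90b1) and base -47 (Hspa5), and the second copy of Hsp90b1, like those of Creld2 and Calr, read on the opposite strand. The other motifs gave the following shares. The core TGACGTGG of the unfolded protein response element stood in 0 of 12 higher folding genes and in 2.2% of all higher genes, against 1.1% of genes not called. The amino acid response letters TGATGNAAN stood in 1 of 9 higher genes of the ATF4 list, Pck2, and in 7 of 15 not called. They stood in 2 of 3 higher synthetase genes and 3 of 11 not called, and in 4.76% of all higher, 4.03% of all lower and 2.85% of all genes not called. For the heat shock element these shares were 0.366% of higher genes and 0.55% of genes not called. The CCACG letters alone stood in 58.2% of higher and 52% of lower genes, against 48.2% of those not called, and CCAAT in 49.8%, 46% and 42%. Within the folding list CCAAT stood in 11 of 12 higher genes and in 8 of 15 not called.

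Sensors and disposal of misfolded protein moved less. Of 23 measured genes 4 rose and 0 fell (median 0.127). Herpud1, a membrane protein of the degradation complex, read 9.28 and 9.26 in BDC2.5/NOD, against 8.55 and 8.28 in NOD (0.86, SE 0.119, adjusted p = 0.000993). Os9, a lectin that hands over misfolded glycoproteins, rose by 0.79, Edem2 by 0.46 and Wfs1, the wolframin gene, by 0.45. Xbp1 and Atf6, which encode the transcription factors of the response, were at 0.05 and -0.12, and neither was called. Transcript level does not report the splicing of Xbp1 or the cleavage of ATF6 through which they act. The count was 2 or 3 when any of the 4 arrays was left out.

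Genes of the ATF4 arm and of amino acid supply rose by smaller amounts. Of 28 measured genes 12 rose and 0 fell (42.9%, median 0.324). Atf4 itself read 8.98 and 8.97 in BDC2.5/NOD, against 8.48 and 8.59 in NOD (0.44, SE 0.0837, adjusted p = 0.00618), and Atf5, a related factor, read 6.06 and 5.99, against 5.18 and 5.35 (0.76). Ddit4, an inhibitor of mTORC1, rose by 0.79. Among enzymes, Psat1 and Psph of serine synthesis rose by 0.70 and 0.37, Pck2, the mitochondrial PEP carboxykinase, by 0.69, Aldh18a1 of proline synthesis by 0.53 and Mthfd2 of folate metabolism by 0.50. Among transporters, Slc3a2 and Slc7a5, the chains of the large neutral amino acid carrier, rose by 0.62 and 0.51, and Slc7a3 by 0.41. Eif4ebp1, a translation repressor, rose by 0.45. Asns, asparagine synthetase, was at 9.76 and 9.73 in BDC2.5/NOD, against 9.72 and 9.82 in NOD, and did not differ by the test (-0.02, adjusted p = 0.92), and Ddit3 was at 0.36 (adjusted p = 0.0532). The count was 5 without BDC2.5/NOD replicate 1, 4 without BDC2.5/NOD replicate 2, 7 without NOD replicate 1, 9 without NOD replicate 2 and 6 with the Xist level as a term. Of 21 aminoacyl-tRNA synthetase genes, which charge tRNAs with amino acids, 7 rose and 1 fell (median 0.235). Rars rose by 0.81 and Nars by 0.67, while Lars, for leucine, fell by 0.39. Of the synthetases, 1 to 3 rose and 0 fell when any of the 4 arrays was left out.

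Past the folding step, genes of coats and Golgi trafficking rose too, with 12 of 46 higher and 0 lower (26.1%, median 0.147). Gorasp2, a stacking protein of the Golgi, read 9.37 and 9.39 in BDC2.5/NOD, against 8.77 and 8.66 in NOD (0.67, SE 0.0948, adjusted p = 0.0011). Lman2, a cargo lectin, and Kdelr3, which returns escaped chaperones, each rose by 0.59, and Gbf1, an activator of Arf GTPases, by 0.61. The count was 3 to 7 with 1 of the 4 arrays left out and 3 with the Xist level as a term. In the translocon list, 4 of 30 genes rose and 1 fell (median 0.078). Ssr1, a subunit of the translocon-associated complex, rose by 1.06, and Sec61a1, the channel itself, by 0.43, while Ssr2, of the same complex as Ssr1, fell by 0.36; 1 to 3 rose with 1 of the 4 arrays left out. Of 43 cytosolic and mitochondrial heat shock genes 5 rose and 2 fell (median 0.0845). Hsph1, a nucleotide exchange factor for Hsp70, read 6.17 and 6.36 in BDC2.5/NOD, against 4.67 and 4.80 in NOD (1.52, SE 0.119, 2.88-fold). Bag3 and Hspa8, a co-chaperone and the constitutive Hsp70, rose by 0.89 and 0.73, and Cct5, a chaperonin subunit, fell by 0.40. These counts were 2 to 5 and 0 when any of the 4 arrays was left out.

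**Figure D3:**
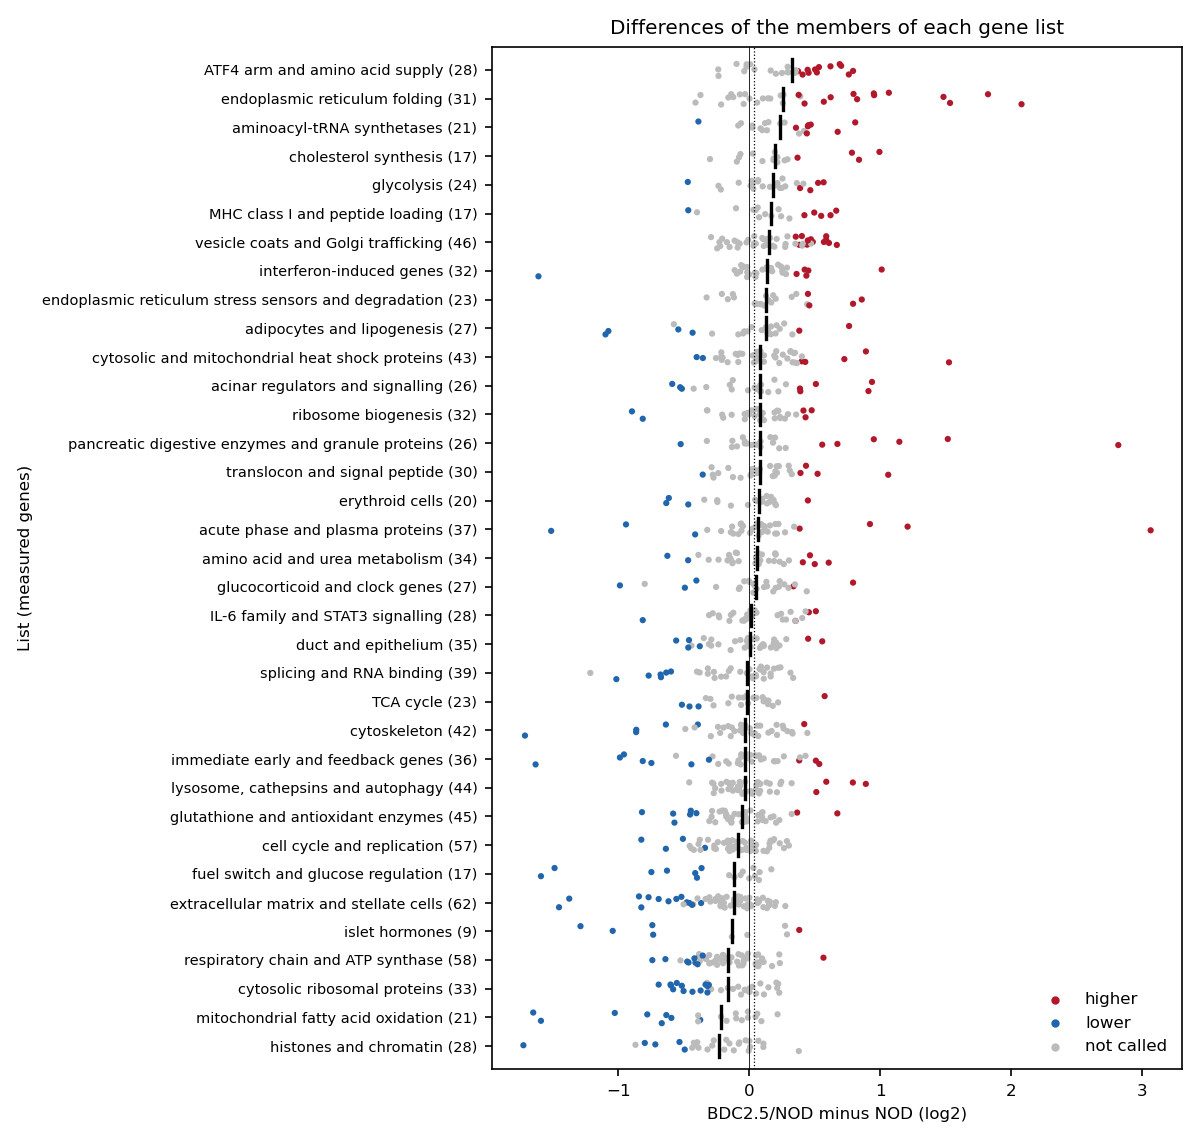
Log2 differences BDC2.5/NOD minus NOD (horizontal) of every measured gene in each list with at least 4 called members other than the Reg family, with the number of genes in brackets; red, blue and grey points were higher, lower and not called, black bars are list medians and the dotted line is the median over all genes, 0.036. Medians run from 0.324 for the ATF4 arm at the top to -0.232 for histones and chromatin at the bottom.

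Of 26 measured digestive enzyme and granule genes 6 rose and 1 fell, and their median difference was 0.08. The leading gene, 1810009J06Rik, read 8.85 and 8.89 in BDC2.5/NOD, against 6.06 and 6.05 in NOD (2.82, SE 0.0895, 7.04-fold, adjusted p = 1.22e-09). Pla2g1b, the secreted pancreatic phospholipase, read 12.63 and 12.59 in BDC2.5/NOD, against 11.18 and 11.01 in NOD (1.51, 2.86-fold). Sycn, the granule protein syncollin, rose by 0.95, the amylase gene Amy1 by 0.67 and the mucin Muc1 by 0.56, and Dmbt1 was given above. Pnliprp1, a lipase-related protein, read 12.25 and 12.25 in BDC2.5/NOD, against 12.79 and 12.76 in NOD (-0.53, SE 0.0793). Under quantile normalization 4 members fell. Of 26 acinar regulators 5 rose and 3 fell (median 0.0843). The amino acid transporter Slc7a8 rose by 0.94 and the gap junction genes Gjb2 and Gjb1 by 0.91 and 0.39. Cckar, the receptor for cholecystokinin that triggers secretion, fell by 0.59, and Nr5a2, a nuclear receptor that maintains acinar identity, by 0.53, with -0.08 on a dimmer probe set that was not called. With 1 of the 4 arrays left out 2 regulators rose and 0 to 2 fell.

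Lipid and fuel metabolism moved in both directions. Of 21 measured genes of mitochondrial fatty acid oxidation 8 fell and 0 rose (38.1%, against 4.56% of all genes, median -0.217). Acaa2, the thiolase of the last step, read 7.08 and 7.08 in BDC2.5/NOD, against 8.70 and 8.77 in NOD (-1.65, SE 0.0944, adjusted p = 5.8e-07). Cpt1a, which passes fatty acids to mitochondria, read 5.49 and 5.45 in BDC2.5/NOD, against 7.11 and 7.01 in NOD (-1.59, SE 0.113). Eci2, an isomerase for unsaturated chains, fell by 1.03, Etfa and Etfb, which take the electrons, were at -0.78 and -0.63, and Hadh, Acadm and Acadl, dehydrogenases of the cycle, at -0.67, -0.60 and -0.38, all called. Acadvl and Acads, for the longest and the shortest chains, were at 0.09 and 0.06 and were not called. Between 5 and 8 fell when any of the 4 arrays was left out. Among 17 fuel switch genes 7 fell and 0 rose (median -0.115). Cpt1a is a member of both lists. Txnip, a glucose-induced inhibitor of thioredoxin, read 5.55 and 5.62 in BDC2.5/NOD, against 7.04 and 7.11 in NOD (-1.49, SE 0.0952), with -0.18 on a further probe set that was not called. Calls of this list included Klf10 at -0.75, Pdk4, a kinase that blocks pyruvate oxidation, at -0.63, and Sesn1 at -0.40; 3 to 5 fell with 1 of the 4 arrays left out.

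Synthesis of cholesterol went the other way. Of 17 measured genes 4 rose and 0 fell (23.5%, median 0.195). Fdps, which makes farnesyl pyrophosphate, read 6.62 and 6.67 in BDC2.5/NOD, against 5.69 and 5.62 in NOD (0.99, SE 0.105, adjusted p = 0.000133). Mvd and Idi1, of the steps before it, rose by 0.78 and 0.84, and Cyp51, a demethylase of the sterol ring, by 0.37. The other 13 were not called, among them Hmgcs1 at -0.07, Sc5d at -0.30 and Mvk at 0.29. Calls of this list changed with single arrays left out, both those higher and those lower. In the glycolysis list 4 of 24 rose and 1 fell (median 0.178). Ldha, lactate dehydrogenase, rose by 0.57 and Hk2 by 0.52, while the other hexokinase Hk1 fell by 0.47. Without BDC2.5/NOD replicate 2 no glycolysis gene was higher (limma), and 1 to 4 were without one of the other arrays. Of 58 respiratory chain and ATP synthase genes 9 fell and 1 rose (15.5% lower, median -0.164). Atpif1, an inhibitor of ATP synthase, fell by 0.74 and Uqcrq of complex III rose by 0.57. No respiratory gene was lower without BDC2.5/NOD replicate 1, 1 was without BDC2.5/NOD replicate 2, and 3 were without either NOD array. In the adipocyte list 4 of 27 genes fell and 2 rose (median 0.127). Adipoq, the fat cell hormone adiponectin, read 4.18 and 4.34 in BDC2.5/NOD, against 5.26 and 5.46 in NOD (-1.10, SE 0.15), and Lpl, the lipase that unloads plasma triglyceride, fell by 1.08. Fasn, fatty acid synthase, which acinar and other cells also make, rose by 0.76. With 1 of the 4 arrays left out 0 to 1 rose and 2 to 4 fell.

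**Figure D4:**
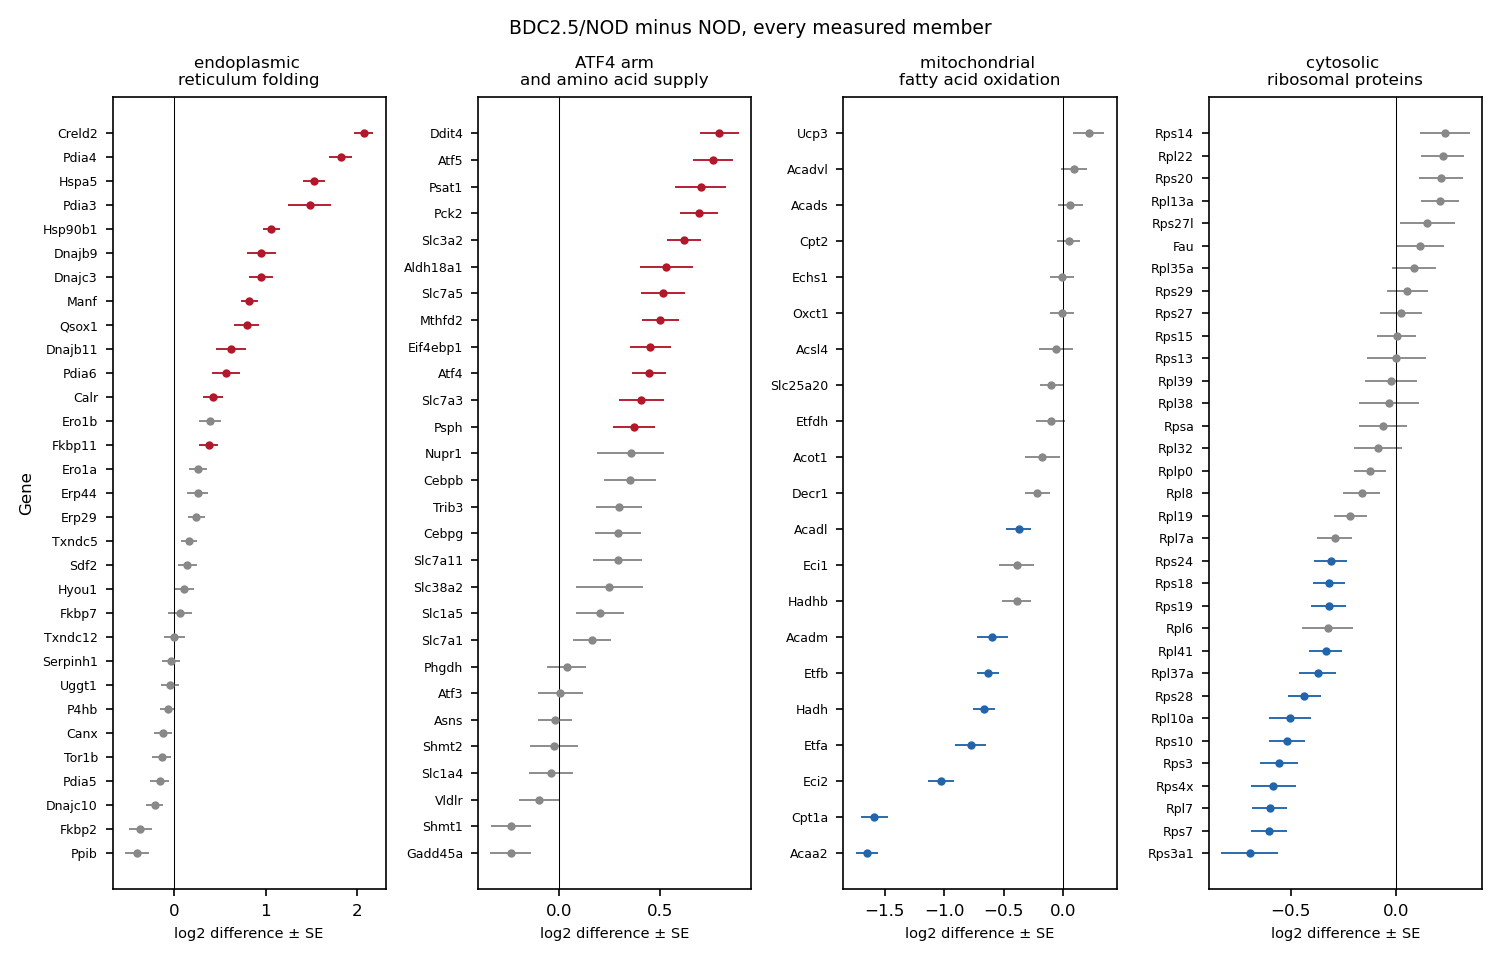
Log2 differences BDC2.5/NOD minus NOD with their standard errors (horizontal) for every measured gene of 4 lists; red, blue and grey points were higher, lower and not called. Creld2 leads the folding genes at 2.08 and Ddit4 the ATF4 list at 0.79, while Acaa2 at -1.65 and Rps3a1 at -0.69 are the lowest of the other lists.

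Cytosolic ribosomal protein genes were lower for 13 of 33 measured members and higher for 0 (39.4%, median -0.164), by small amounts. Rpl7 read 9.34 and 9.45 in BDC2.5/NOD, against 9.97 and 10.02 in NOD (-0.60, SE 0.0838, adjusted p = 0.00103), and a second probe set of Rpl7 was at 0.09. Rps7 was at -0.60, Rps3a1 at -0.69 and Rps3 at -0.55, all called. The highest members, Rps14 and Rpl22, were at 0.23 and 0.22 and were not called. Many genes of this family have near-identical pseudogene copies, and what a probe set reads cannot be told apart from them. The count was 4 without BDC2.5/NOD replicate 1, 3 without BDC2.5/NOD replicate 2, 7 without NOD replicate 1 and 9 without NOD replicate 2. Npm1, the nucleolar protein nucleophosmin, fell by 0.90, and Pabpc1, which binds the poly(A) tail, by 0.66. The lists that hold them did not follow. Of 32 ribosome biogenesis genes 3 rose and 2 fell (9.38% and 6.25%, median 0.0812). Of 37 translation factor genes 1 rose and 2 fell (2.7% and 5.41%, median 0.044).

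Lists of nuclear and growth genes had few calls, all of them lower. Of 28 histone and chromatin genes 5 fell and 0 rose (median -0.232, the lowest of the lists described). H2az2, a variant of histone H2A, read 4.34 and 4.45 in BDC2.5/NOD, against 5.95 and 6.29 in NOD (-1.73, SE 0.152, 3.31-fold, adjusted p = 2.8e-05), and its paralog H2az1 fell by 0.49. Hmgb3 and Rbbp7 were at -0.80 and -0.72, both called. Of 39 splicing and RNA-binding genes 6 fell and 0 rose (median -0.0165), led by Hnrnpa2b1 at -1.02. With 1 of the 4 arrays left out 2 to 4 chromatin genes and 2 to 5 splicing genes fell. Of 57 cell cycle genes 4 fell and 0 rose (median -0.088), among them the microtubule regulator Stmn1 (-0.64) and the inhibitor Cdkn1c (-0.83). The cell cycle count was 7 under quantile normalization and with array medians centred, and 1 to 5 with 1 of the 4 arrays left out. Igf2, a fetal growth factor, read 7.67 and 7.80 in BDC2.5/NOD, against 8.98 and 8.51 in NOD (-1.01, SE 0.178, with 0.06 on a second probe set that was not called), and with Cdkn1c it accounted for both calls among 25 imprinted and growth genes. The shares of 7.02% for the cell cycle list and 8% for the imprinted list lie near the 4.56% of all genes that were lower. Without BDC2.5/NOD replicate 1 neither was called, and without NOD replicate 1 only 1 was.

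Extracellular matrix and stellate cell genes were lower for 13 of 62 measured members and higher for 0 (21%, median -0.118). Dcn, the collagen-binding proteoglycan decorin, read 6.91 and 7.12 in BDC2.5/NOD, against 8.61 and 8.33 in NOD (-1.45, SE 0.159, adjusted p = 0.000172). Postn, the matrix protein periostin, read 3.81 and 3.58 in BDC2.5/NOD, against 4.85 and 5.29 in NOD (-1.38, SE 0.166). The fibrillar collagens Col1a2 and Col3a1 were at -0.77 and -0.69, Lum, lumican, at -0.84, and Pdgfra, the growth factor receptor of mesenchymal cells, at -0.44, all called. Col4a1 of basement membranes was at 6.50 and 6.59 in BDC2.5/NOD, against 7.75 and 6.99 in NOD, so its call (-0.83) rests on an NOD pair that is itself nearly as far apart. The 7 fibroblast markers summed above all belong to this list, so their sum is not a separate measure. The part of cell numbers in the count was not tested. Without BDC2.5/NOD replicate 1 the count was 5, without BDC2.5/NOD replicate 2 it was 6, without NOD replicate 1 it was 8 and without NOD replicate 2 it was 9. Endothelial, muscle and nerve lists had 0 calls among 23, 22 and 18 genes (limma), with 4, 3 and 4 genes at an unadjusted p under 0.05; without NOD replicate 2, 2 nerve genes were higher.

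Hormone genes of islets were lower. Of 9 measured, 4 fell and 1 rose (median -0.134). Ins2, an insulin gene, read 10.85 and 10.80 in BDC2.5/NOD, against 11.59 and 11.53 in NOD (-0.73, SE 0.0865, 1.66-fold, adjusted p = 0.000297). Gcg, the glucagon gene of alpha cells, read 5.30 and 5.38 in BDC2.5/NOD, against 6.51 and 6.75 in NOD (-1.29, SE 0.138). Sst, the somatostatin gene of delta cells, read 6.59 and 6.62 in BDC2.5/NOD, against 7.62 and 7.68 in NOD (-1.04, SE 0.0895). Thus hormones of 3 islet cell types were lower. The groups did not overlap for any of them, as for every called gene, which adds no support. Iapp, the beta cell peptide amylin, fell by 0.74, and Ghrl, ghrelin, rose by 0.38, a call lost with any of the 4 arrays left out and under either other scaling. Of 19 granin and processing genes 2 fell, Cpe, carboxypeptidase E (-1.17), and Scg2 (-0.90), and Chga, the precursor of the antigen that BDC2.5 cells recognise, was at 5.52 and 5.63 in BDC2.5/NOD, against 5.70 and 6.04 in NOD (-0.30, adjusted p = 0.145). Of 21 genes for beta cell function and islet transcription factors only Slc2a2, the glucose transporter, was called (-0.39), and Pdx1 was at 0.18. With 1 of the 4 arrays left out 3 or 4 hormone genes and 2 granin genes fell.

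Of lymphocyte lists, that of B and plasma cells had 1 of 24 genes lower (Jchain, given below) and 0 higher. T cell genes had 0 of 23 called and T cell activation genes 0 of 31 (limma), with 4 and 4 at an unadjusted p under 0.05, and 1 T cell gene was higher without NOD replicate 2. Cd3e, a chain of the receptor complex, read 5.81 and 5.80 in BDC2.5/NOD, against 5.70 and 5.63 in NOD (0.14, adjusted p = 0.475). Cd4 read 6.29 and 6.30 in BDC2.5/NOD, against 6.07 and 6.14 in NOD (0.19, adjusted p = 0.263). Ptprc, the leukocyte antigen CD45, was at 0.02. For Cd3e and Cd4 the BDC2.5/NOD arrays were above the NOD arrays, but neither was called. Members of the T cell list lay on both sides of 0, from -0.264 to 0.359. Its median was 0.079, against 0.036 over all genes. None of 10 probe sets annotated to receptor alpha and beta segments was called (limma, -0.26 to 0.36, smallest adjusted p = 0.0501 for Trav12n-1), with 4 at an unadjusted p under 0.05. The labels do not say which segments the transgene uses, so these probe sets do not check its presence. Macrophage and MHC class II lists had 0 of 34 and 0 of 14 called (limma), with 3 and 4 at an unadjusted p under 0.05. H2-Ea, a class II chain that the NOD strain lacks, read 3.54 and 3.42 in BDC2.5/NOD, against 3.31 and 3.48 in NOD, and Prkdc read 3.37 and 3.53, against 3.49 and 3.70.

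Presentation on MHC class I rose by small amounts, with 5 of 17 genes higher and 1 lower (29.4%, median 0.168). H2-K1, a class I heavy chain, read 7.72 and 7.69 in BDC2.5/NOD, against 6.98 and 7.10 in NOD (0.66, SE 0.0942, adjusted p = 0.0011), with 0.34 and 0.15 on other probe sets. H2-D1 rose by 0.62, Tap2, of the peptide pump, by 0.55 and Tapbp, tapasin, by 0.49, while B2m, the light chain, was at 0.22 and Psme1 fell by 0.47. Class I genes are near-identical in places and their probe sets may read several. The count was 1 to 4 with 1 of the 4 arrays left out. Of 32 interferon-induced genes 5 rose and 1 fell (median 0.134). Lgals3bp, a secreted binder of galectins, read 6.84 and 6.71 in BDC2.5/NOD, against 5.81 and 5.72 in NOD (1.01, SE 0.0977), and Irf9 rose by 0.36. Ly6e, a membrane protein of the same list, went the other way, at 8.56 and 8.37 in BDC2.5/NOD, against 10.17 and 9.98 in NOD (-1.61, SE 0.111), with -0.03 on another probe set. The count of higher genes was 1 or 2 with 1 of the 4 arrays left out. Relb and Nfkb2, of the alternative NF-kB pathway, rose by 0.50 and 0.58, while Xiap of the same list was at -0.56, also called. With 2 of 42 genes higher (4.76%) and 1 lower (2.38%), the list was not above the general level. Over all genes the shares were 4.16% higher and 4.56% lower. Of 28 genes of IL-6 and STAT3 signalling 3 rose and 1 fell, with Stat3 at 0.45, Junb at 0.51 and Bcl3 at 0.35 on the one side and Myc at -0.81 on the other; 0 were called without either BDC2.5/NOD array or without NOD replicate 1 (limma).

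Blood cells and immunoglobulin gave a few calls. S100a8, a calcium-binding protein of neutrophils, read 3.64 and 3.35 in BDC2.5/NOD, against 4.55 and 4.89 in NOD (-1.23, SE 0.202, adjusted p = 0.00276), and its partner S100a9 fell by 0.41, the only calls among 19 neutrophil genes; 0 or 1 was called with 1 of the 4 arrays left out. Of 20 erythroid genes 3 were lower and 1 higher, with a median of 0.0755. The adult globin genes Hba-a1 and Hbb-b2 were at -0.64 and -0.62 and the embryonic globin Hbb-y at 0.45, all called. Both adult globins are among the red cell markers summed above. Among 69 probe sets annotated to immunoglobulin genes 3 were lower and 1 higher. These counts are near or below the shares over all probe sets, 4.06% lower and 3.91% higher. A probe set of the kappa variable gene Igkv6-23 read 4.13 and 4.22 in BDC2.5/NOD, against 6.03 and 5.76 in NOD (-1.72, SE 0.122, 3.3-fold). A probe set shared by Igkv6-23, other kappa segments and the constant gene Igkc read 5.62 and 5.66 in BDC2.5/NOD, against 7.36 and 7.34 in NOD (-1.72, SE 0.101), and Jchain fell by 0.38. Both kappa differences were larger than the spread of the pairs.

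Immediate early and feedback genes were mixed, with 7 of 36 lower and 3 higher (median -0.0355). Ifrd1, a regulator induced by growth signals, read 4.43 and 4.78 in BDC2.5/NOD, against 6.13 and 6.35 in NOD (-1.63, SE 0.156, adjusted p = 5.37e-05), and Sgk1, a kinase induced by corticoids, fell by 0.99. Btg1 fell by 0.96, while Gadd45g rose by 0.53. With 1 of the 4 arrays left out 4 to 6 fell and 0 or 1 rose. The metallothioneins Mt1 and Mt2 were at -0.58 and -0.41, both called. Outside the groups described so far, Marcks, a substrate of protein kinase C at the membrane, read 4.62 and 4.74 in BDC2.5/NOD, against 6.44 and 6.35 in NOD (-1.71, SE 0.164), and Tmsb4x, the actin-binding peptide thymosin beta 4, fell by 0.86. Itm2a, a membrane protein, was at -1.58, Erdr1 at -1.30 and Abca1, the cholesterol exporter, at -1.27, all called, with further probe sets of Erdr1 and Abca1 at -0.29 and -0.19. Pdxdc1, named for a pyridoxal-dependent decarboxylase domain, was split between probe sets: the brightest read 7.20 and 7.39 in BDC2.5/NOD, against 5.16 and 5.15 in NOD (2.14, SE 0.11), while the others were at -0.91, called, and -0.29. Its direction is therefore not settled by this array.

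Whether the transgene did the same in NOD.scid, where the scid mutation prevents rearrangement of other receptors, was tested as an interaction, the difference BDC2.5/NOD minus NOD less the difference BDC2.5/NOD.scid minus NOD.scid. The 2 differences share no arrays. In NOD.scid 575 of 8251 genes were called (6.97%). Of the 719 genes called in NOD, 137 were called in the same direction there (19.1% of the NOD calls and 23.8% of the NOD.scid calls, 40 higher and 97 lower in both) and 29 in the opposite direction. The interaction was called for 586 of 12422 probe sets (4.72%) and 444 of 8251 genes (5.38%), 239 with a larger and 205 with a smaller log2 value in NOD. Of the 719 genes, 239 (33.2%) had a called interaction, a share that the choice of genes raises, since the NOD difference is part of the interaction. Of the folding genes, 11 of 31 had a positive interaction and 0 a negative one, and the median of the list was 0.256 in NOD and -0.032 in NOD.scid. Pdia4 was at 1.82 in NOD and 0.00 in NOD.scid (interaction 1.82, adjusted p = 9.52e-05), Creld2 at 2.08 and 0.56, and Hsph1 at 1.52 and -0.06 (interaction 1.59). Fdps, of cholesterol synthesis, was at 0.99 in NOD and -0.33 in NOD.scid, and 4 of the 17 genes of its list had a positive interaction.

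Reg genes rose in both backgrounds, and the difference was larger in NOD for 3 of them, with Reg3a at 4.98 in NOD and 2.78 in NOD.scid (interaction 2.20, adjusted p = 1.27e-06), Reg2 at 4.17 and 2.53 and Reg3b at 5.10 and 3.79, whereas the interaction of Reg3g (0.64) was not called (adjusted p = 0.0515). For Reg2 and Reg3a the levels with the transgene were close in the 2 backgrounds, and those without it were lower in NOD. Reg2 read 12.08 and 12.28 in BDC2.5/NOD, against 8.05 and 7.96 in NOD, and 12.28 and 12.02 in BDC2.5/NOD.scid, against 9.65 and 9.60 in NOD.scid. Reg3a read 11.56 and 11.70 in BDC2.5/NOD, against 6.72 and 6.58 in NOD, and 11.31 and 11.10 in BDC2.5/NOD.scid, against 8.47 and 8.37 in NOD.scid. Fatty acid oxidation had 6 of 21 genes with a negative interaction, among them Cpt1a, at -1.59 in NOD and 0.40 in NOD.scid. Of 17 fuel switch genes, 5 had a negative interaction and 4 were called higher with the transgene in the NOD.scid background. Txnip was at -1.49 in NOD and 1.57 in NOD.scid (interaction -3.06, adjusted p = 3.45e-07), and Pdk4 at -0.63 and 2.32. MHC class II and macrophage genes had no call in NOD and 5 of 14 and 12 of 34 in NOD.scid, with 4 and 8 negative interactions, as for H2-Aa at 0.05 in NOD and 2.96 in NOD.scid. Ins2 was lower in both, by less in NOD (-0.73, against -1.45 in NOD.scid, interaction 0.71). For Gcg (-0.14) and Sst (0.34) the interaction was not called. Without BDC2.5/NOD replicate 1, BDC2.5/NOD replicate 2 or NOD replicate 1, the probe sets with a called interaction numbered 195, 214 and 346. This contrast uses the BDC2.5/NOD pair with its higher BioB controls and lower Xist. Xist went the other way in NOD.scid, at 4.19 and 5.92 in BDC2.5/NOD.scid, against 3.35 and 3.52 in NOD.scid. Eif2s3y read 3.49 and 3.15 in BDC2.5/NOD.scid, against 3.90 and 4.10 in NOD.scid (-0.68, limma, adjusted p = 0.0119). These imbalances in both backgrounds enter the contrast and cannot be told apart from an effect of the background.

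**Figure D5:**
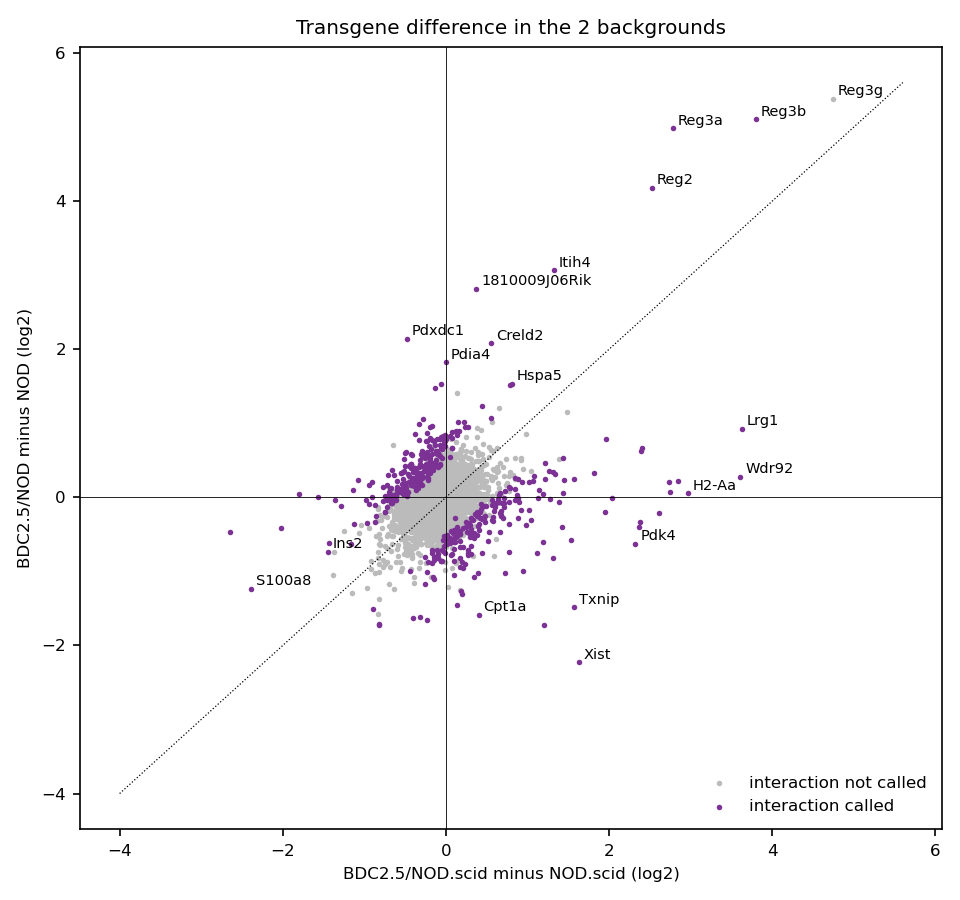
Each point is a gene, with its log2 difference BDC2.5/NOD minus NOD (vertical) against BDC2.5/NOD.scid minus NOD.scid (horizontal); purple genes had a called interaction, and the dotted line marks equal differences. Reg3g at 5.38 and 4.74 lies near the line, Pdia4 at 1.82 and 0.00 far above it, and Txnip at -1.49 and 1.57 far below.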

How the data were processed

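Whole pancreas RNA was measured on 8 one-colour Affymetrix arrays, 2 for each of 4 groups. The authors deposited 1 table of log2 values, a unit taken from the values themselves (2.02 to 13.8). The summarization, normalization and background method behind it are not stated in the labels, so they are not given here, and scanner files were not used here. No counts exist, so the number of arrays limits the precision. Groups came from the sample titles. Probe sets were named from GEO's platform annotation: 10833 had 1 symbol, 396 several and 1193 none, and 10817 gene IDs matched the current symbol table with 0 symbols changed. The probe set with the highest 8-array mean stood for its gene, and 2073 of the 8251 genes had several.

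Group means over all 8 arrays were fitted in limma (version 3.58.1, under R 4.3.3; lmFit, eBayes with a variance trend, 4 residual degrees of freedom, prior degrees of freedom 8.07). Two-sided p-values were adjusted by Benjamini-Hochberg over 12422 probe sets, with a threshold of 0.05. Tables and figures were made with pandas 2.3.3, numpy 2.4.6 and matplotlib 3.10.9. The fit was tested on simulated data for this comparison over 12422 probe sets, with 200 changed in each of 5 simulations. It recovered 73.2% of log2 changes of 0.5 and 100% of changes of 1, and 5.73% of its calls were false. The simulated noise was independent and normal, with the spread that the fit itself estimated. These rates therefore do not cover differences between whole arrays, such as those in BioB, actin or Xist. Array numbers in the titles are not stated to pair arrays. The deviations of BDC2.5/NOD replicate 1 and NOD replicate 1 from their group means correlated at -0.000391 across probe sets, so the numbers were not taken as pairs.

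Named genes are the 15 with the largest called difference per direction whose higher group lay above the array median, up to 4 members per list with the smallest p plus members needed to account for a list, the 8 largest interactions per direction and a fixed set of islet, T cell and check genes. The members, 56 gene lists and motifs were chosen with earlier results of these data known. Alternatives were other thresholds, scalings, filters, variance models, covariates, a replicate block and each array left out. The averaged BDC2.5/NOD pair and the Xist term were chosen after seeing the data. Promoter sequences are from RefSeq (GRCm38.p6).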

Additional observations from a re-analysis of the deposited data

Results flagged for a closer look

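Of 45 genes checked, 33 had a log2 difference BDC2.5/NOD minus NOD that departed from BDC2.5/NOD.scid minus NOD.scid by the interaction test (limma, adjusted p under 0.05), 15 upward and 18 downward. Over all genes the share was 5.38%, but the 45 were chosen for large differences in NOD or large interactions, so their count is no result. Values are given as the interaction on the log2 scale.

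Among the secreted proteins it was 1.31 for Reg3b, 2.20 for Reg3a, 1.65 for Reg2, 1.74 for Itih4, 0.78 for Itln1, 2.44 for 1810009J06Rik and 0.73 for Pla2g1b. For the folding and heat shock genes it was 1.52 for Creld2, 1.82 for Pdia4, 1.62 for Pdia3, 0.72 for Hspa5 and 1.59 for Hsph1. All of these were higher in BDC2.5/NOD than in NOD, and the difference in NOD.scid was smaller: 3.79 for Reg3b, 2.78 for Reg3a, 2.53 for Reg2 and 1.32 for Itih4, down to 0.00 for Pdia4, -0.06 for Hsph1 and -0.14 for Pdia3. For Pdxdc1 it was 2.62 on the probe set used, which another probe set of the gene contradicts.

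Negative interactions with a difference that was more negative in NOD were those of H2az2 at -0.91, Marcks at -0.90, Acaa2 at -1.42, Ifrd1 at -1.22, Ly6e at -1.29 and Vtn at -0.63, all below 0 in both backgrounds. Cpt1a at -1.99, Dcn at -1.59, Erdr1 at -1.50 and Abca1 at -1.46 had a NOD.scid difference above 0, which for Dcn, Erdr1 and Abca1 was at most 0.19.

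Opposite directions were seen for Txnip (-3.06), Igkv6-23 (-2.92), Pdk4 (-2.95) and Sesn1 (-2.77), each with a negative transgene difference in NOD and a positive one in NOD.scid. Xist (-3.85) also had opposite signs and was called in neither background. Wdr92 (-3.33) was at 0.28 in NOD and 3.61 in NOD.scid, Ctss, the lysosomal protease cathepsin S of antigen-presenting cells (-2.82), at -0.21 and 2.61, and Lrg1 (-2.71) at 0.92 and 3.63. S100a9 (1.61) fell in both and by more in NOD.scid, as did Ins2 (0.71). The Xist level, the BioB controls and the small spread of the BDC2.5/NOD pair enter each of these values, and their part was not tested gene by gene.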

How the results depend on the processing

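The number of probe sets called between BDC2.5/NOD and NOD (990) became 79 with a 2-fold minimum, 419 at an adjusted p under 0.01, 1568 with array weights, 1521 with the 4 arrays alone, 278 with the BDC2.5/NOD arrays averaged and 606 with the Xist term, and ranged from 279 to 1139 with 1 array left out, the lone array of a group then being assumed to vary like the others. It was 762 with the title number as a replicate block, and between 957 and 1296 with quantile normalization, centring, a filter on dim probe sets, no trend, a robust prior or the actin control as a term. The interaction (586) became 994 with the actin control as a term, 197 with the averaged pair and 253 with the Xist term, ranged from 195 to 491 with 1 array left out, and was 411 with the replicate block. Of 153 genes named and called, 80 stayed called in every fit that held their probe set, and 0 changed direction. The filter on dim probe sets kept 143 of the 153, so the others were not tested in that fit. Most losses came without BDC2.5/NOD replicate 1 (63 genes), without BDC2.5/NOD replicate 2 (62) or with the averaged pair (61), and 45 came with the Xist term; the cause was not tested, beyond there being fewer samples. Other probe sets of the same gene had the opposite sign for Pdxdc1 (-0.29 and -0.91), Dnajc3 (-0.014), Pck2 (-0.13), Aldh18a1 (-0.12), Cct5 (0.013), Tapbp (-0.03), Psme1 (0.23), Pdgfra (0.264 and 0.002), Etfb (0.19), Hk2 (-0.009), Rpl7 (0.093) and Igf2 (0.063). Of these only the -0.91 of Pdxdc1 was called.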
